A study of Mus musculus with 16 samples.

Results

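The 10 genes of cartilage and tendon followed here in cortical bone of 16 mice were Acan, Sox9, Comp, Matn3, Hapln1, Chad, Tnmd, Scx, Mkx and Thbs4. They are the 10 features of 36829 in the RNAseq data whose symbol matched this list. All mice were female, of the strain C57Bl/6 and 11 weeks old. In the HLU group (n = 8) the hind limbs were unloaded for 7 days by suspension of the tail, and the Control group (n = 8) bore weight normally. Neither group is described as carrying a transgene or deletion. Isoflurane anaesthesia is named for the taping of the tail in the HLU group and not for the Control group. Each mouse was its own library. The ends of the bones were cut off and the marrow was flushed out before RNA extraction, and the study states that soft tissue around the bone was removed as well. The comparisons asked whether transcript abundance of these genes differed between HLU and Control mice, and how far it varied from mouse to mouse, since variation between mice is one sign by which tissue attached to the bone can be noticed.

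Chondrocytes build a matrix in which aggrecan, held on hyaluronan by link protein, fills a network of type II, IX and XI collagen, and Sox9 drives the genes for this matrix. Tenocytes, the cells of tendon and ligament, depend on the transcription factors Scx and Mkx and make tenomodulin and thrombospondin 4 beside type I collagen. In a long bone both tissues lie outside the cortex itself, at the joint surface and growth plate or at the sites where muscles and ligaments insert.

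Transcript abundance is given in RPKM, the reads on a gene scaled by its length and by the size of the library, a unit that allows levels to be compared between genes. Fold changes and standard deviations are on the log2(RPKM + 0.1) scale, which understates differences in low genes. Libraries held 7067512 (Control 2) to 21363584 (HLU 6) reads as implied by the RPKM values, and 3 reads on a gene of 1 kb equalled 0.140 to 0.424 RPKM. All 10 osteoblast and osteocyte markers examined passed the filter on low values, and their summed level was 939 to 2266 RPKM in Control and 1247 to 2707 RPKM in HLU mice, led by Ibsp with a mean of 556 RPKM. Over all features the median log2 fold change, HLU minus Control, was -0.10. Median-of-ratios rescaling of the libraries moved this median to -0.02 and quantile normalization to 0.00, and the share of higher genes among those called from 18.9% to 48.4% and 55.8%. Whether cells of a type were fewer or held less RNA each cannot be told apart in bulk bone.

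The 250 bases before the transcription start are shown for Chad, Thbs4 and Tnmd, since their levels ran together from mouse to mouse (r of 0.81 to 0.94). RefSeq promoter sequences on GRCm38.p6 were matched for 6 of the 10 members. Capitals mark CANNTG, the E-box word that basic helix-loop-helix factors such as Scx bind, and ACAAAG, a word of Sox factors, which reads CTTTGT where it lies on the other strand. The Chad sequence is chr11:94564797-94565046 (plus strand), that of Thbs4 is chr13:92794819-92795068 (minus strand) and that of Tnmd is chrX:133850758-133851007 (plus strand).
Chad: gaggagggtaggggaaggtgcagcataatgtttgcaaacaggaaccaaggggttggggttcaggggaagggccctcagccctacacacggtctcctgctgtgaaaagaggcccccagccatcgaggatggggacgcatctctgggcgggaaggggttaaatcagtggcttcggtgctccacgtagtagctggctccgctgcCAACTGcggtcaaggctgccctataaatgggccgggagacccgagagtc
Thbs4: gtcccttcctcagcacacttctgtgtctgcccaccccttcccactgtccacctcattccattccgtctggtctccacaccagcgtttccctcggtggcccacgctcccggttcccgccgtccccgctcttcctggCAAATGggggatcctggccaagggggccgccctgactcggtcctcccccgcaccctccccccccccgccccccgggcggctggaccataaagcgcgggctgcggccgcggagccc
Tnmd: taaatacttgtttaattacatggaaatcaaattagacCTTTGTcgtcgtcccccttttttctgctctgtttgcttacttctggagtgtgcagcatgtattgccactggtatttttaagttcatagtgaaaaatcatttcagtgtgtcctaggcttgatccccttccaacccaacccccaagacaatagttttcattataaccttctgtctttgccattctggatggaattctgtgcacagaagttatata
Chad held 1 CANNTG word, CAACTG, 49 bases before the start, and Thbs4 held 1, CAAATG, 115 bases before it. Tnmd held no CANNTG word and 1 ACAAAG word on the other strand, 213 bases before the start. On either strand, CANNTG occurred in 66.2% and ACAAAG in 16.5% of 32851 promoters of this length, so each word alone is a common one.

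Thbs4 was by far the most abundant of the 10 genes. It encodes thrombospondin 4, a secreted matrix protein of tendon and of the connective tissue of muscle, and lies on chromosome 13 from 92751590 to 92794818 (GRCm38, GENCODE M21). Its lowest, median and highest values were 13.1, 68.3 and 113 RPKM in Control mice. In HLU mice they were 26.3, 72.2 and 182 RPKM. Control 1 was lowest of all mice and HLU 6 and HLU 7 were highest, while HLU 2 and HLU 3 lay below all Control mice but Control 1, so the groups overlapped. Between 878 and 14096 reads stood behind each value. The log2 fold change was 0.31 (standard error 0.46, 95% interval -0.67 to 1.29, limma adjusted p = 0.867, exact permutation p = 0.549). Thbs4 alone made up 46.4% to 65.0% of the summed RPKM of the 10 genes in a mouse.

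Tnmd encodes tenomodulin, a membrane protein that marks mature tenocytes, on chromosome X from 133850980 to 133865577. Control mice had a lowest, median and highest value of 5.48, 16.6 and 30.6 RPKM, and HLU mice of 7.13, 21.3 and 43.8 RPKM. The 3 highest values belonged to HLU 6, HLU 4 and HLU 7, and the lowest to Control 1 and HLU 3. The groups overlapped, with a log2 fold change of 0.32 (standard error 0.41, 95% interval -0.54 to 1.18, limma adjusted p = 0.842, exact permutation p = 0.473).

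Scx and Mkx, the tendon transcription factors, were low. Scx, which encodes scleraxis, had values of 0.804, 1.87 and 4.57 RPKM (lowest, median, highest) in Control and of 0.807, 1.69 and 2.84 RPKM in HLU mice. Control 3 and Control 5 stood above every other mouse, and Control 1 and HLU 4 were lowest. Its log2 fold change was -0.28 (standard error 0.34, 95% interval -1.004 to 0.44, limma adjusted p = 0.834, exact permutation p = 0.444). Scx lies on chromosome 15 from 76457452 to 76459458, where Bop1 overlaps it on the opposite strand. Use of strand in the counting is not stated and overlap of exons was not examined, so whether the 2 genes share reads is not known. Only 8 to 92 reads per mouse fell on Scx. Mkx, which encodes the homeobox factor mohawk, had 0.619, 1.99 and 2.63 RPKM in Control and 0.970, 2.21 and 3.04 RPKM in HLU mice. HLU 4, HLU 6 and HLU 7 were highest, and Control 2 was lowest, followed by Control 1 and HLU 2. The log2 fold change of Mkx was 0.33 (standard error 0.30, 95% interval -0.30 to 0.97, limma adjusted p = 0.773, exact permutation p = 0.304). The annotation places a further transcript, AC148004.2, over Mkx on the same strand.

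Sox9, the transcription factor that sets the chondrocyte fate, had a mean of 0.472 RPKM over the 16 mice and did not pass the filter of 0.5 RPKM. It lies on chromosome 11 from 112782224 to 112787760. Its lowest, median and highest values were 0.244, 0.508 and 0.719 RPKM in Control and 0.237, 0.435 and 0.701 RPKM in HLU mice, from 17 to 57 reads. Neither group stood above the other, and in a fit without the filter HLU minus Control was -0.10 on the log2 scale (95% interval -0.63 to 0.42, limma adjusted p = 0.927, exact permutation p = 0.641).

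Acan encodes aggrecan, the large proteoglycan that holds water in cartilage, on chromosome 7 from 79053483 to 79115099. Control mice had 0.231, 0.736 and 2.15 RPKM (lowest, median, highest), and HLU mice had 0.402, 1.06 and 1.72 RPKM. Control 5 and Control 8 were the highest mice and Control 2 the lowest, so the Control group spanned the whole HLU group. The log2 fold change was 0.10 (standard error 0.39, 95% interval -0.73 to 0.93, limma adjusted p = 0.950, exact permutation p = 0.803). Hapln1, which encodes the link protein that ties aggrecan to hyaluronan, lies on chromosome 13 from 89539796 to 89611652 and contains a pseudogene, Gm8546, on the opposite strand. It had 0.392, 0.966 and 1.15 RPKM in Control and 0.324, 0.844 and 1.31 RPKM in HLU mice. HLU 4 and HLU 6 were highest, HLU 3 was lowest, and its log2 fold change was -0.05 (standard error 0.32, 95% interval -0.72 to 0.62, limma adjusted p = 0.972, exact permutation p = 0.889).

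Comp encodes cartilage oligomeric matrix protein, a relative of thrombospondin 4 found in cartilage, tendon and ligament, on chromosome 8 from 70373558 to 70382066. Its lowest, median and highest values were 2.22, 8.34 and 18.7 RPKM in Control and 3.48, 7.54 and 19.0 RPKM in HLU mice. HLU 6, Control 5 and HLU 7 were highest, and Control 1 and Control 2 were lowest. The groups covered nearly the same range (log2 fold change 0.06, standard error 0.47, 95% interval -0.92 to 1.04, limma adjusted p = 0.976, exact permutation p = 0.906).

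Chad encodes chondroadherin, a leucine-rich repeat protein of the cartilage matrix, on chromosome 11 from 94565047 to 94569127, where Acsf2 overlaps it on the opposite strand. It was the third most abundant member, with 4.14, 12.7 and 26.2 RPKM in Control and 8.40, 13.7 and 30.4 RPKM in HLU mice. HLU 7, HLU 6 and Control 3 were highest and Control 1 was lowest. The log2 fold change was 0.18 (standard error 0.37, 95% interval -0.59 to 0.96, limma adjusted p = 0.903, exact permutation p = 0.651).

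Matn3 encodes matrilin 3, an adaptor protein of the cartilage matrix, on chromosome 12 from 8947929 to 8972028, and was close to the limit of detection. With at most 12 reads in a mouse, its mean was 0.0864 RPKM. The median and highest values were 0.0963 and 0.141 RPKM in Control and 0.0675 and 0.243 RPKM in HLU mice. No read was counted in Control 2, Control 6 and HLU 2, which allows up to 0.141, 0.0621 and 0.0606 RPKM, counting error only. In the fit without the filter HLU minus Control was 0.16 on the log2 scale (95% interval -0.43 to 0.76, limma adjusted p = 0.888, exact permutation p = 0.577), a difference that could not be resolved at this depth.

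The order of the levels was led by Thbs4 with a median share of 57.6% of the summed RPKM of the 10 genes. Tnmd (15.9%) and Chad (13.2%) were next to each other, and their shares overlapped between mice, as did those of Chad and Comp (6.98%). Mkx and Scx (1.68% and 1.65%) had overlapping ranges over the mice, and so had Acan, Hapln1 and Sox9 (0.818%, 0.677% and 0.456%). Ranges overlapped between these steps as well. Comp (from 2.39%) overlapped Mkx and Scx (up to 3.38% and 3.02%), these 2 overlapped Acan and Hapln1, and Sox9 (from 0.0847%) overlapped Matn3 (up to 0.258%). Matn3 was lowest at 0.0709%. The transcription factors Scx, Mkx and Sox9 each made up at most 3.38% in any mouse.

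**Figure D1:**
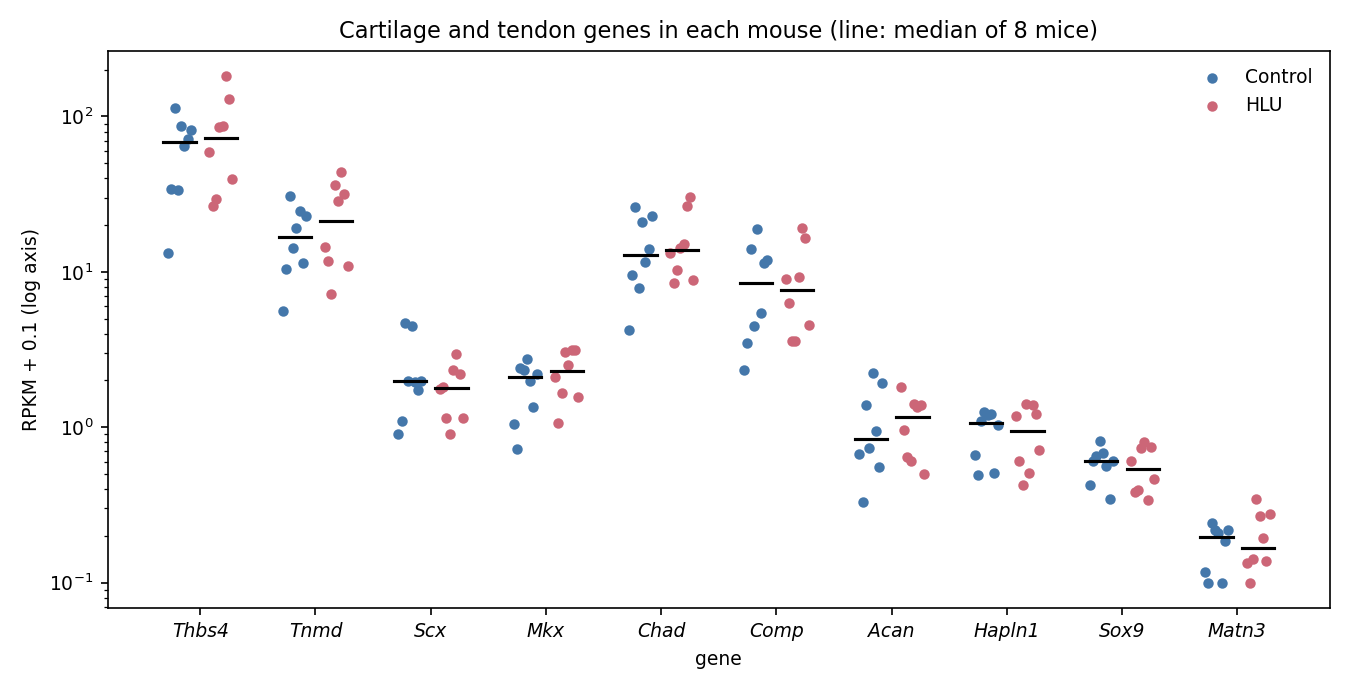
Transcript abundance of the 10 genes (RPKM + 0.1, log axis) in each of 8 Control and 8 HLU mice, 1 point per mouse, with the group median as a line. Thbs4 spans 13.1 to 182 RPKM and Matn3 lies at or below 0.243 RPKM, and the groups overlap for every gene.

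Of the 8 members that passed the filter, 0 were called at an unadjusted limma p under 0.05 with a change of at least 1.2-fold, against 5.87% of the 16973 features tested (1.11% higher and 4.76% lower in HLU mice). At an adjusted p under 0.1, 0 members and 0% of all features were called by limma, although 1049 features had an unadjusted p under 0.05. The lowest unadjusted limma p among the members was 0.278, that of Mkx. All 10 members had overlapping groups, as did all but 0.0295% of features. Most pairs of the 8 members tested varied together between mice, so the signs of their fold changes were not independent. Fold changes were above 0 for 6 of these 8 members, with a median of 0.14 on the log2 scale against -0.10 over all features. This count depended on the setting: 3 of 8 were above 0 with array weights and with the erythroid and granulocyte scores as covariates, 4 of 8 without Control 1, without Control 2 or without the 2 smallest libraries, and 7 of 8 with median-of-ratios rescaling. Leaving out 1 mouse moved the fold changes of the tendon genes by more than 1.5 times. Without Control 1 the log2 fold change of Thbs4 was 0.026 and that of Tnmd 0.11, without Control 2 that of Mkx was 0.16, and without Control 3 that of Scx was -0.11. Each 95% interval included 0. The intervals of Thbs4, Tnmd, Comp and Scx also included a 2-fold difference in 1 direction, just so for Comp and Scx. In all alternative settings tried, no member reached an unadjusted p under 0.05.

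**Figure D2:**
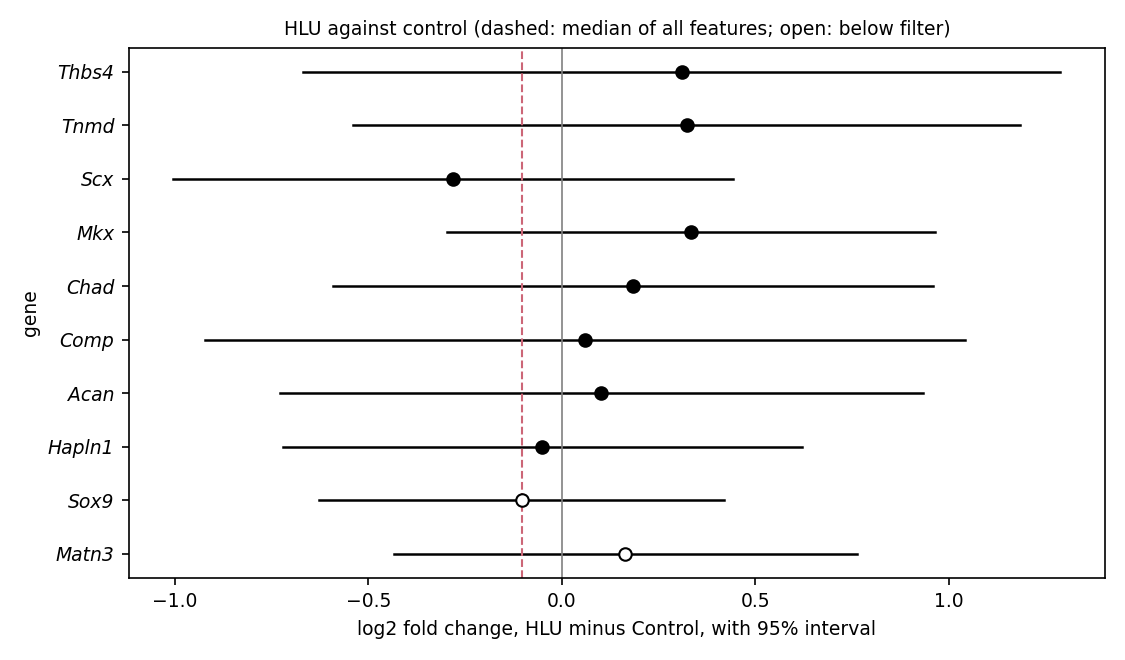
Log2 fold change, HLU minus Control, of the 10 genes with 95% intervals (n = 8 mice per group), filled for the 8 genes that passed the filter and open for Sox9 and Matn3. Every interval includes 0, and the dashed line is the median of all features, -0.10.

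Other cartilage genes gave the same count. Of 24 genes written down, all were listed, 12 passed the filter and 0 were called in either direction, with a median log2 fold change of -0.08. The most abundant were Col11a1, a fibrillar collagen also made by osteoblasts (mean 27.0 RPKM), Wif1, a secreted Wnt inhibitor (22.2 RPKM), Scrg1 (14.7 RPKM), Col11a2 (10.9 RPKM) and Pth1r, the receptor of parathyroid hormone (10.8 RPKM). Several of these are also expressed by bone cells. Log2 fold changes of these 5 genes lay between -0.32 (Col11a2) and -0.04 (Pth1r), with limma adjusted p of 0.809 and 0.978. Ihh, a signal of prehypertrophic chondrocytes, was below the filter at 0.0683 RPKM and had an unadjusted limma p of 0.0342 only in the fit without it (-0.43 on the log2 scale, adjusted p = 0.820).

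Other tendon and ligament genes were more abundant. Of 17 genes written down 16 were listed, 15 passed the filter and 0 were called, with a median log2 fold change of 0.17. Tnc, which encodes the matrix glycoprotein tenascin C, led with a mean of 124 RPKM, ahead of Fmod, the small proteoglycan fibromodulin (61.3 RPKM). Col12a1, a collagen that coats type I fibrils, had 18.7 RPKM, Angptl7 had 10.7 RPKM and Chodl 7.44 RPKM. Fmod had the highest fold change among the 15 genes, 0.53 on the log2 scale (standard error 0.39, limma adjusted p = 0.760).

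**Figure D3:**
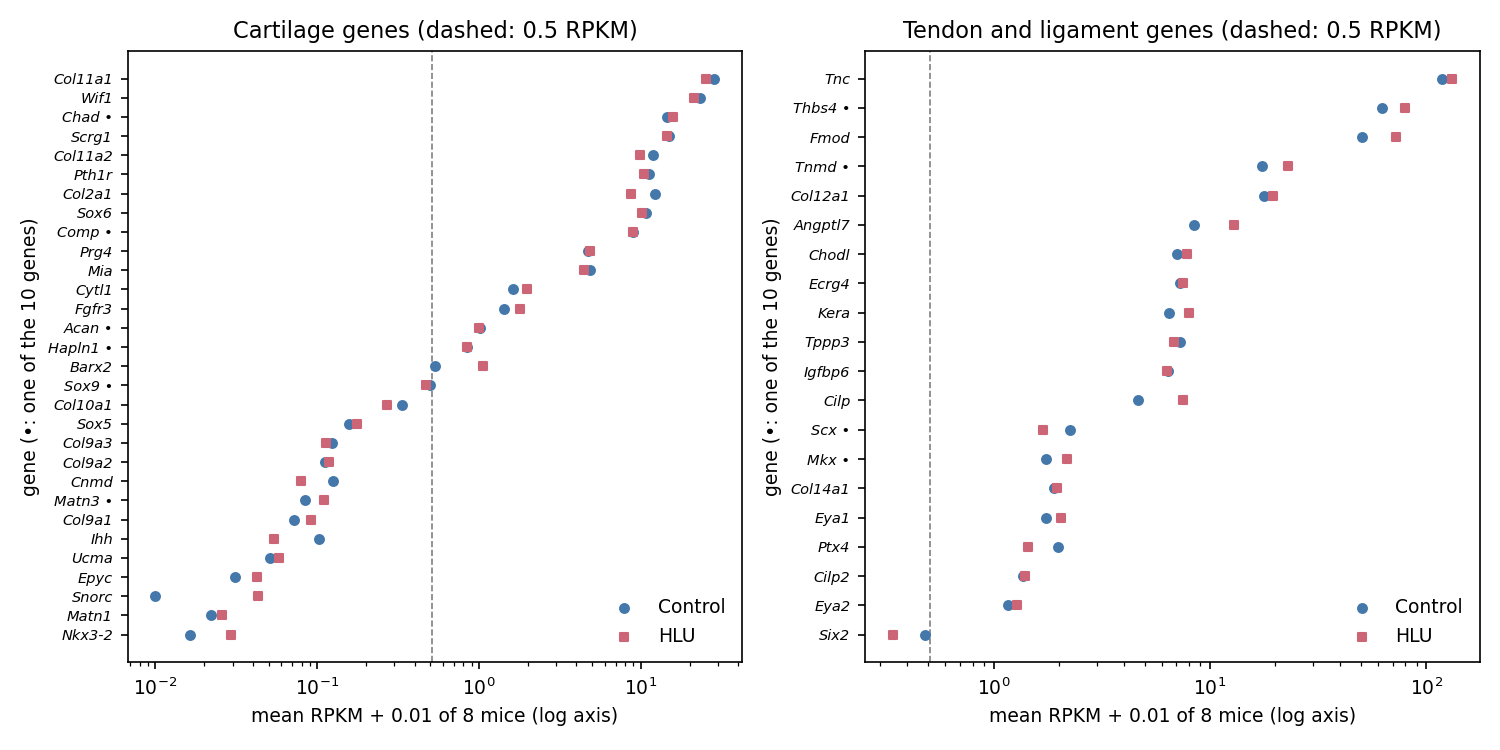
Mean transcript abundance (RPKM + 0.01, log axis) in 8 Control mice (circles) and 8 HLU mice (squares) of cartilage genes on the left and tendon and ligament genes on the right, with dots by the names of the 10 genes and a dashed line at the filter of 0.5 RPKM. Tnc leads the tendon genes with a mean of 124 RPKM over all mice, while Sox9 and Matn3 lie left of the filter.

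Variation between mice was wide. The ratio of the highest to the lowest mouse was 13.9 for Thbs4, 9.29 for Acan, 8.55 for Comp, 8.00 for Tnmd and 7.35 for Chad. It was 5.68 for Scx, 4.91 for Mkx, 4.03 for Hapln1 and 3.03 for Sox9. The standard deviation of log2 values within groups had a median of 0.81 over the 8 members that passed the filter, against a median of 0.43 over all features. This median was 0.85 over other tendon and ligament genes, 0.82 over fibroblast and periosteum markers and 0.93 over adipocyte markers. It was 0.68 over other cartilage genes, 0.66 over osteoblast and osteocyte, 0.59 over erythroid and 0.56 over granulocyte markers. Slow muscle genes had 2.04, so a wide spread was not particular to the members. Comp and Thbs4 had standard deviations of 1.01 each, above 89.7% of all features, and Mkx, the least variable of the 8, one of 0.63, above 73.5%. Counting alone, from the median number of reads recovered, would give 0.024 for Thbs4, 0.079 for both Tnmd and Chad, and 0.094 for Comp. It would give 0.26 for Scx and 0.27 for Sox9, whose standard deviations were 0.73 and 0.45. Both groups were wide, with standard deviations of Thbs4 of 1.02 in Control and 1.00 in HLU mice. By Dixon's test, no mouse stood apart from its group in any of 36 tests of the members and gene lists.

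The same mice were low or high for most members. With the 16 mice ranked from lowest (1) to highest for each of the 8 members, Control 1 had a mean rank of 2.38 and Control 2 of 2.75, and Control 2 was among the 5 lowest mice for all 8 members. HLU 3 and HLU 8 followed with mean ranks of 4.00 and 4.75. At the other end, HLU 6 and HLU 7 had mean ranks of 14.6 and 13.8 and were among the 5 highest mice for 7 of 8 members each. Control 5 and Control 3 had mean ranks of 13.0 and 12.8. Each group thus held mice from both ends. HLU 4 was mixed, with the highest Hapln1 of all mice and the lowest Scx and Comp of the HLU group.

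**Figure D4:**
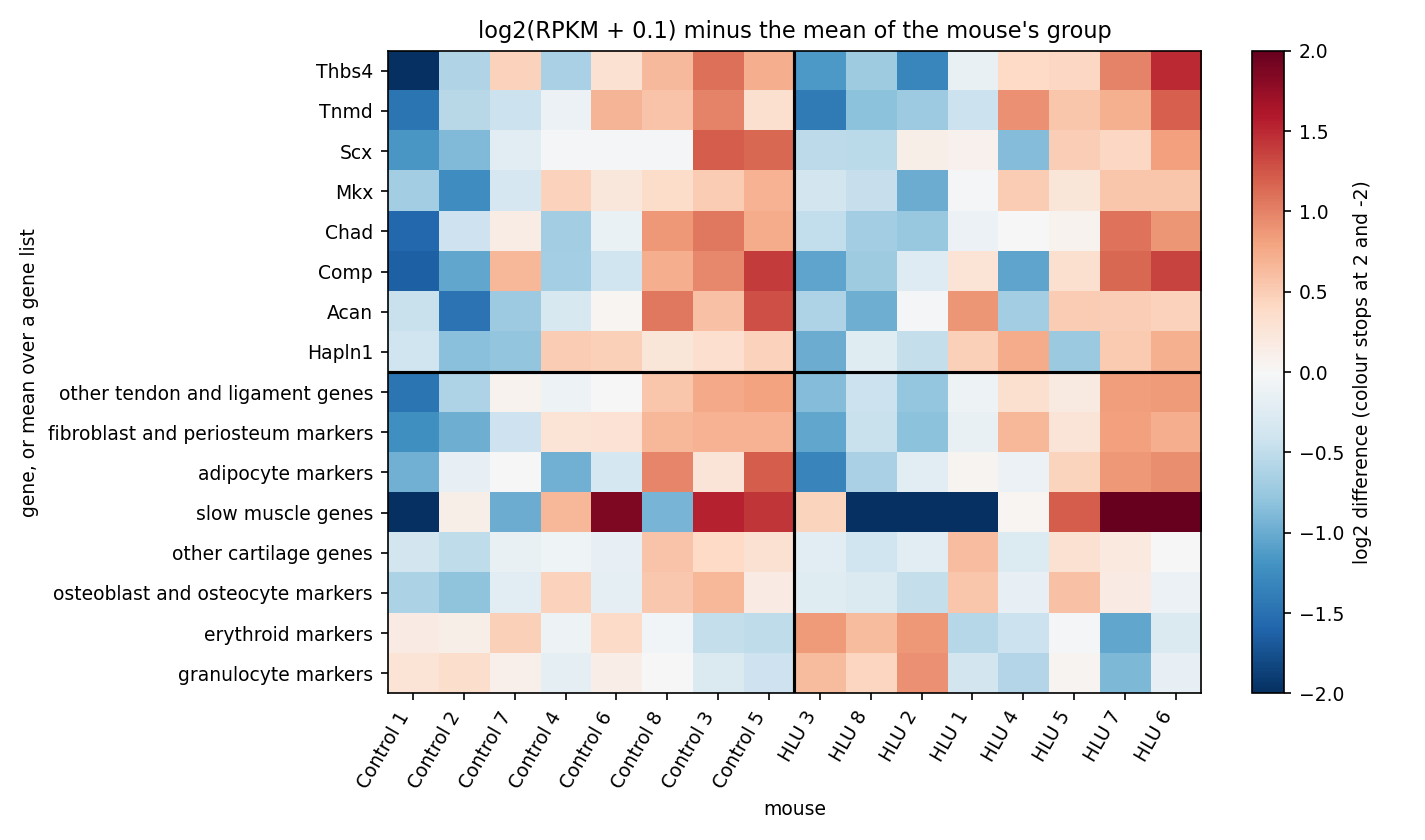
Log2(RPKM + 0.1) of 8 genes, and means of log2 values over 8 gene lists, minus the mean of the mouse's group, with Control mice on the left and HLU mice on the right, ordered within each group by the mean over the 8 genes. Control 1, with a mean rank of 2.38, is blue and HLU 6, with 14.6, is red for most genes, and the erythroid and granulocyte rows run the other way.

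Relations between members were computed over the 16 mice after the group means had been removed, with 100000 permutations within groups and Benjamini-Hochberg adjustment over all 125 relations computed. Of 28 pairs among the 8 members, 21 passed an adjusted permutation p under 0.05, all of them positive, with r of at least 0.60. Among all pairs of features kept, 11.2% had an r this high. By Spearman's rho 20 pairs passed. Thbs4 and Chad were closest (r = 0.94, rho = 0.97, permutation p = 1e-05 for both, the smallest that 100000 permutations can give, adjusted p = 0.00025 and 0.000313), in Control (r = 0.97) as in HLU mice (r = 0.93), and r was 0.91 without the 2 mice farthest out on Thbs4, Control 1 and HLU 2. Thbs4 and Tnmd followed (r = 0.90, rho = 0.85, permutation p = 2e-05 and 0.00014, adjusted p = 0.000278 and 0.00117), with r = 0.88 without the same 2 mice. Comp and Scx had r = 0.88 and rho = 0.86 (permutation p = 1e-05 and 4e-05, adjusted p = 0.00025 and 0.000455), and r = 0.86 without Control 3 and Control 5. Comp and Tnmd had r = 0.65, which dropped to 0.46 without Control 1 and HLU 3, so that this relation rested in part on those mice. Hapln1 passed with Tnmd and Mkx alone (r = 0.69 and 0.77), and Acan did not pass with Thbs4, Tnmd or Hapln1 (r = 0.55, 0.52 and 0.52). Sox9 and Matn3, at few reads, passed in 1 of the other 17 pairs, Matn3 with Mkx (r = 0.59, adjusted permutation p = 0.0377), where r was 0.34 without Control 2 and HLU 2.

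Genes of other tissues varied with the members, and these values stand beside the relations. Other tendon and ligament genes, taken as the mean of 15 genes, passed with all 8 members with no covariate (r from 0.63 for Acan to 0.97 for Thbs4). Fibroblast and periosteum markers also passed with all 8 with no covariate (r from 0.65 for Acan to 0.93 for Tnmd). Thbs4 and the tendon list had rho = 0.96 (permutation p = 1e-05, adjusted p = 0.00025), and r was 0.94 without the 2 mice farthest out. Of 8 fibroblast and periosteum markers 7 were kept, summing to 142 to 443 RPKM in Control and 151 to 590 RPKM in HLU mice, led by Aspn (mean 126 RPKM). Adipocyte markers passed with 6 members, all positive, and 5 of 7 were kept, led by Adipoq (54.1 RPKM), with sums of 45.5 to 142 RPKM in Control and 57.3 to 156 RPKM in HLU mice. Other cartilage genes, taken as the mean of the 12 that passed the filter, passed with 5 members. The 12 below the filter, among them Col9a1, Col9a2, Col9a3 and Matn1, were not in this mean. The list was closest to Acan (r = 0.90, rho = 0.91, permutation p = 2e-05 and 3e-05, adjusted p = 0.000278 and 0.000455), with r = 0.89 without Control 8 and HLU 1. Of these 2 lists, Acan had the higher r with the cartilage list (0.90 against 0.63) and Thbs4 with the tendon list (0.97 against 0.57). Chad, Comp and Hapln1 had r of 0.94, 0.85 and 0.65 with the tendon list. With the cartilage list they had lower r, 0.66, 0.72 and 0.41. Tnmd, Scx and Mkx also had the higher r with the tendon list. These differences were not themselves tested. Acan also had r = 0.73 with osteoblast and osteocyte markers, and several genes of the cartilage list are also expressed by bone cells.

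Slow muscle genes, chosen after the values had been seen, passed with 5 members, all positive (r up to 0.75, for Thbs4). All 4 of them (Myh7, Tnni1, Tnnt1 and Tnnc1) were kept, and their sum ran from 6.80 (Control 1) to 249 RPKM (Control 6) in Control and from 8.43 (HLU 2) to 321 RPKM (HLU 7) in HLU mice. The 15 skeletal muscle markers written down were not analysed here. Osteoblast and osteocyte markers passed by r with 3 of the 8 members, Mkx, Acan and Scx (r = 0.73, 0.73 and 0.65). All 8 r were positive, from 0.45 for Hapln1. Comp, Chad, Tnmd and Thbs4 missed by r (0.53 to 0.57, adjusted permutation p 0.0535 to 0.0583). They passed by Spearman's rho (0.60 to 0.64, adjusted permutation p 0.0236 to 0.0365). Sox9, below the filter, passed as well (r = 0.58, adjusted permutation p = 0.0370). Of the 10 markers 1, Mepe, was called higher in HLU mice, as were 1.11% of all features (unadjusted limma p = 0.0247, adjusted p = 0.744, exact permutation p = 0.0392).

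Marrow genes ran the other way. Erythroid markers passed with 6 of the 8 members and granulocyte markers with 5, all negative, with r down to -0.70 (Hapln1) and -0.79 (Mkx). Sox9, below the filter, also passed with both lists (r = -0.63 and -0.61, adjusted permutation p = 0.0376 and 0.0461). All 8 erythroid markers were kept, with sums of 1006 to 2051 RPKM in Control and 508 to 1914 RPKM in HLU mice, and 2 of them, Rhag and Klf1, were called lower in HLU mice (4.76% of all features were), with a limma adjusted p of 0.744 each and exact permutation p of 0.0636 and 0.0511. Of 8 granulocyte markers 5 were kept, led by S100a8 (mean 10923 RPKM), with sums of 17226 to 37154 RPKM in Control and 12162 to 43709 RPKM in HLU mice. With both marrow scores as covariates 12 of the 28 pairs passed, and with the osteoblast and osteocyte score 8 passed, both chosen after the values had been seen. Thbs4 and Chad kept r = 0.92 in both (adjusted permutation p = 0.000525 and 0.00268). With the osteoblast and osteocyte score, Acan still passed with other cartilage genes (r = 0.81, adjusted permutation p = 0.00416). Comp, Chad, Scx and Mkx no longer passed with that list (r = 0.56, 0.41, 0.34 and -0.12). Acan, Hapln1 and Scx no longer passed with the tendon list (r = 0.31, 0.54 and 0.58), while Comp, Chad, Tnmd, Mkx and Thbs4 did. Acan, Comp and Scx no longer passed with fibroblast and periosteum markers (r = 0.30, 0.52 and 0.41). With the marrow scores, Acan, Comp and Hapln1 did not pass with those markers (r = 0.60, 0.60 and 0.51). Acan, Hapln1 and Mkx then did not pass with the tendon list (r = 0.53, 0.22 and 0.62). Only Acan then passed with the cartilage list (r = 0.86), and only Thbs4 with slow muscle genes (r = 0.61). The part of attached tendon, fibrous tissue, muscle, fat or leftover marrow in the spread of the 10 genes was not tested.

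**Figure D5:**
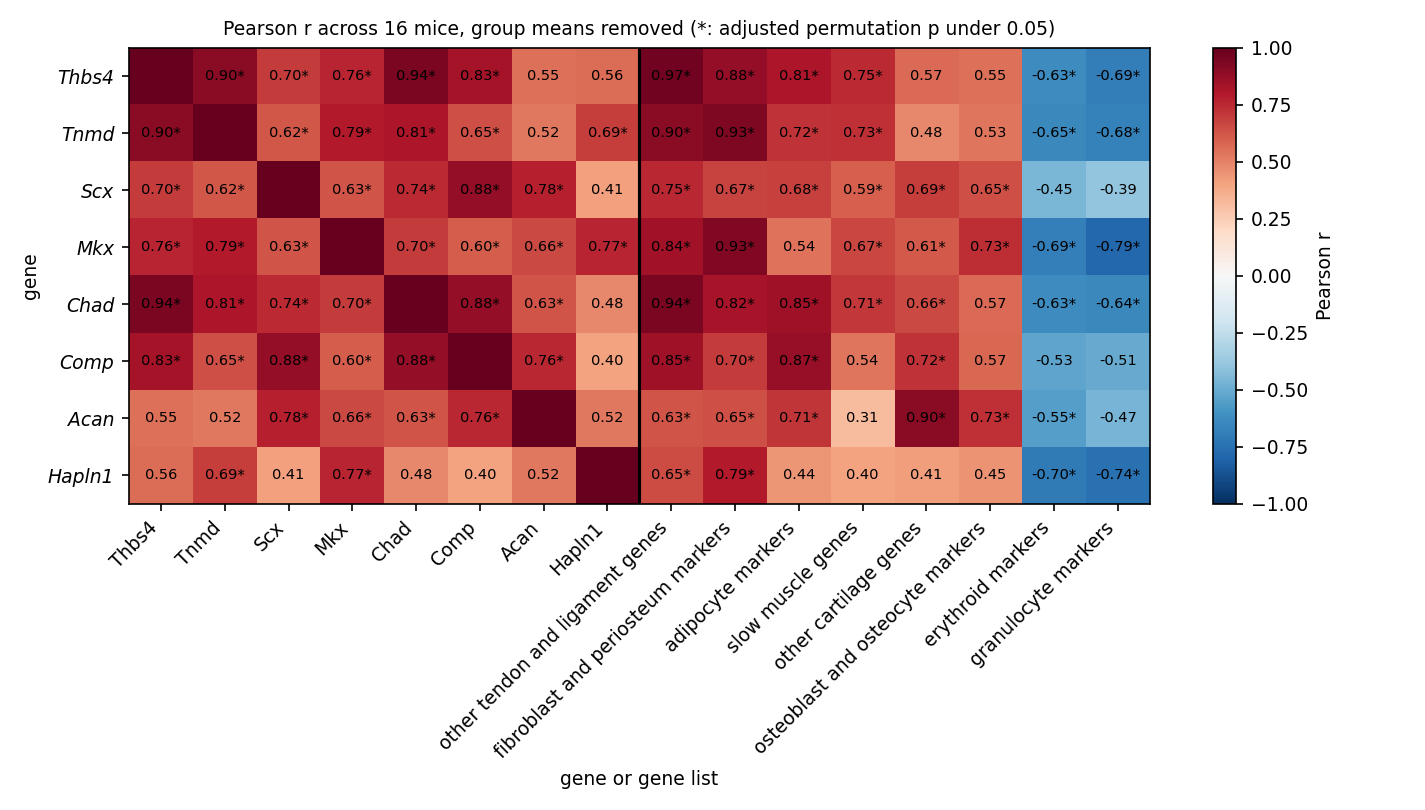
Pearson r across 16 mice, group means removed, of 8 genes with each other and with the means of 8 gene lists, with a star where the permutation p adjusted over 125 relations was under 0.05. All 28 pairs are positive (0.40 to 0.94), and the erythroid and granulocyte columns are negative for every gene.

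Each member's closest features were searched among 15744 features with a unique symbol and a mean of at least 0.5 RPKM, as a description. Thbs4 was closest to Fxyd6 (r = 0.98), Cilp (0.97) and Fmod (0.96), and Tnmd to Dpt (0.95), Cilp (0.94) and Rcan1 (0.93). Cilp and Fmod are matrix genes of the tendon list and Dpt one of the fibroblast list. Comp was closest to Blcap, Htra3 and Nbl1 (r = 0.97, 0.97 and 0.96), Chad to Rnd2, Evc and Meg3 (r = 0.97, 0.96 and 0.96), and Scx to Blcap, A230083G16Rik and Zhx2 (r = 0.91, 0.90 and 0.90). Mkx was closest to Cryz, Nrep and Large (r = 0.95 each), and Acan to Mmp14, a membrane-bound matrix metalloproteinase (r = 0.93), Pycr1 (0.90) and C1qtnf6 (0.89). Hapln1 was closest to Gm16012, Usp28 and 1700025G04Rik (r = 0.87, 0.86 and 0.85), Sox9 to Dnajc25, Parp6 and Olfr558 (r = 0.88, 0.85 and 0.85) and Matn3 to Gm22064, Coa6 and Gorab (r = 0.94, 0.83 and 0.83). An r over 0.8 was shared with 1173 features by Comp (7.45%), with 741 by Chad, 527 by Thbs4, 371 by Mkx, 247 by Tnmd, 197 by Scx and 117 by Acan. Hapln1, Sox9 and Matn3 shared it with 38, 37 and 13 features.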

How the data were processed

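Per the labels and the methods, cortical bone RNA of 8 Control and 8 HLU mice was made into TruSeq v2 libraries, sequenced 8 per lane and aligned with TopHat2, and the submitters' processing notes name the build mm9. The authors deposited 1 RPKM table per mouse; the counting tool, gene annotation and use of strand are not given in the sources used here, and the DESeq2 comparison of the authors was not used. Each mouse had its own library. A count test could not be the main test of RPKM. RPKM values were compared with limma 3.58.1 in R 4.3.3 on log2(RPKM + 0.1), with a variance trend, over 16973 features (mean RPKM of 0.5 or more), with Benjamini-Hochberg adjustment. The exact permutation test of a member was two-sided, over 12870 splits of the mice (smallest p 0.000155). Whole reads were recovered from RPKM for 100% of features kept, from the smallest gene length that gave whole numbers in all mice. This implied length equalled the GENCODE M21 length for 3023 of the 14754 kept genes that had one, which limits the read numbers. Relations used Python 3.11.15, numpy 2.4.6, scipy 1.17.1 and pandas 2.3.3, and figures matplotlib 3.10.9. Positions are from GENCODE M21 (GRCm38), a build other than that of the files. P-values set a difference or a correlation against the spread between these mice and do not measure that spread. Intervals from reads cover counting error only.

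The members and gene lists were chosen with earlier results of these data known. Named genes were the 10 members, the 5 most abundant genes of each of the 2 further lists and any with an unadjusted p under 0.05, the 3 features closest to each member, and the most abundant gene of each marker list, except that of the erythroid list, which is not reported here. Mepe, Rhag, Klf1 and the slow muscle genes were named after their values were seen. Some marker genes, among them all 15 skeletal muscle markers, were not analysed here.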

Additional observations from a re-analysis of the deposited data

How the results depend on the processing

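The comparison was repeated under 29 alternatives, 2 of them chosen after seeing the data; the planned skeletal muscle score was not run, since its markers were not analysed here. In each of the 29 alternatives 0 members were called. Over all features 996 were called, 371 with erythroid and granulocyte scores as covariates, 1816 with a slow muscle score, 865 with voom on recovered reads (30.8% of them higher), and 588 to 1748 without 1 mouse (649, 659, 629 and 588 without Control 6, Control 7, HLU 1 and HLU 7, and 1748 without HLU 2). The count at an adjusted p under 0.1 was 1 in place of 0 with no filter, no variance trend, the slow muscle score or without HLU 2, and 0 to 1 without 1 mouse. Of the other cartilage and tendon genes, 12 and 15 passed the filter. They gave 1 call with the marrow scores, where 371 of 16973 features were called, and 3 with the slow muscle score, where 1816 of 16973 were. Without 1 mouse they gave 0 to 1 (1 without HLU 1, where 629 of 16973 features were called). With no filter there was 1 call among all those listed, where 1439 of 29628 features were called. The median standard deviation of the members was 0.617 with a pseudocount of 1 and 0.745 to 0.839 without 1 mouse. Pairs of members that passed numbered 12 with the marrow scores, 8 with the osteoblast and osteocyte score and 17 to 25 without 1 mouse, against 21. No member's fold change was past the threshold in any setting. Without 1 mouse, Thbs4 ranged from 0.026 (Control 1) to 0.50 (HLU 2), Tnmd from 0.11 (Control 1) to 0.52 (HLU 3), Mkx from 0.16 (Control 2) to 0.48 (HLU 2) and Scx from -0.45 (Control 1) to -0.11 (Control 3), with no change of sign. The other 4 members tested turned sign in at least 1 setting. Hapln1 was 0.030 with median-of-ratios rescaling, 0.0070 with quantile normalization, 0.012 with the slow muscle score, 0.013 with voom on recovered reads and -0.17 to 0.090 without 1 mouse. Acan was -0.057 with array weights, -0.60 with the marrow scores, -0.18 without the 2 smallest libraries and -0.11 to 0.29 without 1 mouse. Comp was -0.049, -0.40 and -0.13 in the same settings and -0.17 to 0.26 without 1 mouse. Chad was -0.037 with array weights, -0.063 with the marrow scores and -0.040 to 0.34 without 1 mouse. The r of Mkx with other cartilage genes was -0.12 with the osteoblast and osteocyte score. The causes were not tested. With the replicate number as a block 1039 features and 0 members were called. Control and HLU mice of the same number correlated from -0.17 to 0.51, and 1 of 8 Control mice correlated best with its own number. The labels state no pairing, and 8 such correlations cannot decide whether the numbers pair the mice. Depth limits Matn3, with 0 to 12 reads per mouse.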

Other observations

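Cartilage collagens lay at very different levels in these bones. Col11a1 had a mean of 27.0 RPKM and Col2a1, the chain of the main cartilage collagen, 10.4 RPKM, while Col9a1, Col9a2 and Col9a3, the chains of the collagen that decorates type II fibrils, had 0.0713, 0.105 and 0.109 RPKM. Col10a1, made by hypertrophic chondrocytes, had 0.290 RPKM, and Matn1 0.0140 RPKM. Col2a1 was 12.2 ± 6.27 (SD, n = 8) RPKM in Control and 8.70 ± 6.48 (SD, n = 8) RPKM in HLU mice, and the difference of -0.60 on the log2 scale did not pass the test (standard error 0.37, limma adjusted p = 0.747). It was counted in every mouse, with 451 to 3825 reads, whereas Col9a2 and Col9a3 had no read in at least 1 mouse. In the list of other cartilage genes 12 of 24 lay below 0.5 RPKM. Col2a1, Col9a1, Col9a2, Col9a3, Col10a1 and Matn1 were named after their values were seen.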
